A study of Rattus norvegicus with 12 samples.

Results

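The genes described here encode the enzymes and control proteins with which a cell makes cholesterol and fatty acids. They were chosen by name: a probe set counted where the platform annotation gave it exactly 1 gene symbol and that symbol was among 35 listed names. By this rule 29 genes were measured, of 14324 named genes on the array. They comprised 14 enzymes of sterol synthesis, 5 genes of sterol control, 9 genes of fatty acid synthesis, elongation and desaturation, and Lpin1. Hmgcs1, Mvk, Fdps, Srebf1 and Fasn were not analysed here, and Scd1 is an older name of Scd. The arrays were Affymetrix arrays of neonatal rat heart muscle cells in culture. The cells came from hearts of Sprague-Dawley pups 2 days old and were treated for 3 days. The groups were vehicle (0.1% DMSO) and the plasticiser DEHP, di(2-ethylhexyl) phthalate, at 1, 10 or 50 µg/ml in the same amount of DMSO, with 3 arrays each and 12 in all. All cells came from 1 litter, so the spread between arrays is that between cultures of that litter.

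Cells make cholesterol from acetyl-CoA through mevalonate, isoprenoid units, squalene and lanosterol, and they make saturated fatty acids from the same acetyl-CoA by way of malonyl-CoA. Both routes are under the SREBP transcription factors, which stay in the endoplasmic reticulum membrane until the escort protein Scap carries them to the Golgi, where proteases release their active part. When sterols are plentiful, the Insig proteins hold Scap back. SREBP-2, from Srebf2, acts mainly on sterol genes and SREBP-1c, from Srebf1, mainly on fatty acid genes. In heart muscle, malonyl-CoA is known chiefly as the inhibitor of mitochondrial fatty acid uptake.

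Each deposited value sets 1 array against its probe set's median array, and is given here as a log2 ratio, so that 0 is the median array and 1 unit is a doubling. Ratios carry no level, so neither the level of a gene nor the presence of heart muscle markers could be read. The ratio was read with the array on top and the median below, a direction that the sources used here leave unstated. With the ratio turned, each rise below would be a fall of equal size. A change is a difference of group means ± its standard error. It was called where the adjusted p from limma, over all 14324 genes, was under 0.05. At 10 µg/ml, replicate 2 stood apart: the standard deviation over genes of its difference from the group mean was 0.119, against 0.0591 to 0.0929 in the other 11 arrays. At 50 µg/ml all 12 macrophage markers examined were lower than in the vehicle (median change -1.30), and the mean of these markers was -1.003, -1.05 and -1.14 in the 50 µg/ml arrays, against 0.157, 0.352 and 0.214 in the vehicle arrays. Heart muscle markers were higher in 6 of 10 and lower in 1, epicardial markers were higher in 2 of 4, endothelial markers higher in 3 of 6 and lower in 1, and smooth muscle and pericyte markers lower in 3 of 5 and higher in 1, while 0 of 8 fibroblast markers passed. Among all genes 17.6% were called at 50 µg/ml, 8.75% higher and 8.84% lower. Fewer cells of a type and less RNA per cell cannot be told apart in such cultures, and the part of these shifts in the lipid genes was not tested.

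Promoter sequence was at hand for 23 of the 29 genes in the RefSeq table for build GRCr8, and the 250 bases before the gene start were searched on both strands. The promoters of Insig1, Tm7sf2 and Scap are given because these genes had 3 of the 4 largest rises at 50 µg/ml, and those of Idi1 and Msmo1 because both were lower at 10 than at 1 µg/ml. Each is read 5′ to 3′ along the gene, with capitals at the motifs searched: the NF-Y box CCAAT, the box GGGCGG that the factor Sp1 can bind, and the E-box CACGTG, each also where it reads on the opposite strand.
Insig1, chr4:8057770-8058019, minus strand: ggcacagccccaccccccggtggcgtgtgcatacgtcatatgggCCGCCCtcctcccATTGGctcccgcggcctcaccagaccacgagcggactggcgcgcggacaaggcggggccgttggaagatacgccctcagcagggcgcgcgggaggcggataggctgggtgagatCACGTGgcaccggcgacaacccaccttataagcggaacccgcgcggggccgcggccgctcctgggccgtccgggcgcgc
Tm7sf2, chr1:212789542-212789791, minus strand: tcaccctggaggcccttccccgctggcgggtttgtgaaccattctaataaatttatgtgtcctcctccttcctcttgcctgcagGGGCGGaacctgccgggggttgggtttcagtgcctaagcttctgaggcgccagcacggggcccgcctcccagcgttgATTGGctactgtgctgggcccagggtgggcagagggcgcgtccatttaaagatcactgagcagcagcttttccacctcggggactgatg
Scap, chr8:119184188-119184437, plus strand: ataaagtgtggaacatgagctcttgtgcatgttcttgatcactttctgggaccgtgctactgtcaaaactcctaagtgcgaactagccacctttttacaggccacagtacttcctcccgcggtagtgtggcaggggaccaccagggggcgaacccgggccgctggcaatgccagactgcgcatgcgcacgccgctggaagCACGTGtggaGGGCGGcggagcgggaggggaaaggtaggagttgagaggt
Idi1, chr17:66547525-66547774, minus strand: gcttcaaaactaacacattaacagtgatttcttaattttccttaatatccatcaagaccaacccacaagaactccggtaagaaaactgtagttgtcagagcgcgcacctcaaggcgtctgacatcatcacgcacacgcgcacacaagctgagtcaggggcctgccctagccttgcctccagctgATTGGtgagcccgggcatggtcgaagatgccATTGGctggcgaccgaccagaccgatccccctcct
Msmo1, chr16:29746863-29747112, plus strand: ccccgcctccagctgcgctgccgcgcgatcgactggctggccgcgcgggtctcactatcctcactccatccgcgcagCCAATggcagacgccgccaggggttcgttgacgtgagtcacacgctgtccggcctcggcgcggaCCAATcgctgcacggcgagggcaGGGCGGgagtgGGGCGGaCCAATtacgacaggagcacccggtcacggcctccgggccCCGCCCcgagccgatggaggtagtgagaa

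The NF-Y box was in 17 of the 23 promoters (73.9%), against 34% of all 33469 promoter windows and 35.4% of those of genes named on the array. It was in 9 of 11 promoters of sterol synthesis genes (81.8%) and in 4 of 7 of fatty acid genes (57.1%). Msmo1 held 3 NF-Y boxes, Idi1 held 2, Insig1 and Tm7sf2 held 1 each, and Scap held 0. The Sp1 box was in 16 of 23 (69.6%), against 30.5% of all windows and 47.2% of those of genes on the array. The short E-box CACGTG was in those of Elovl5, Insig1, Sc5d and Scap (17.4%), against 5.59% of all windows and 6.83% of those of genes on the array. Of the genes higher at 50 µg/ml, 11 had a promoter window. The NF-Y box was in 6 of these (54.5%), the Sp1 box in 9 (81.8%) and the short E-box in 3 (27.3%). The sterol regulatory element TCACNCCAC and the longer E-box ATCACGTGA, which contains the short one, were in 0 of 23, against 0.974% and 0.227% of all windows. Among the windows of genes on the array the shares were 0.938% and 0.396%. A match here is a string of letters and not a measured binding site, and no match says only that these letters are not in this window.

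At the highest dose, 50 µg/ml, 12 of the 29 genes rose against the vehicle and 1 fell, while 16 did not pass the threshold. That is 44.8% of the genes, against 17.6% called among all genes (8.75% higher and 8.84% lower). Sterol synthesis had 6 of 14 higher and 0 lower, sterol control 2 of 5 higher and 0 lower, and the fatty acid group 4 of 9 higher and 1 lower. The median change was 0.20 over the 29 genes, against 0.02 over all genes. The 50 µg/ml arrays lay entirely to one side of the vehicle arrays in 18 of the 29 genes (62.1%), against 36% of all genes. Without replicate 2 at 10 µg/ml, which enters the fit through its spread, 15 genes passed at 50 µg/ml, with Idi1 and Mvd added. The genes were picked with earlier results of these data known, so these shares describe them and test nothing.

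**Figure D1:**
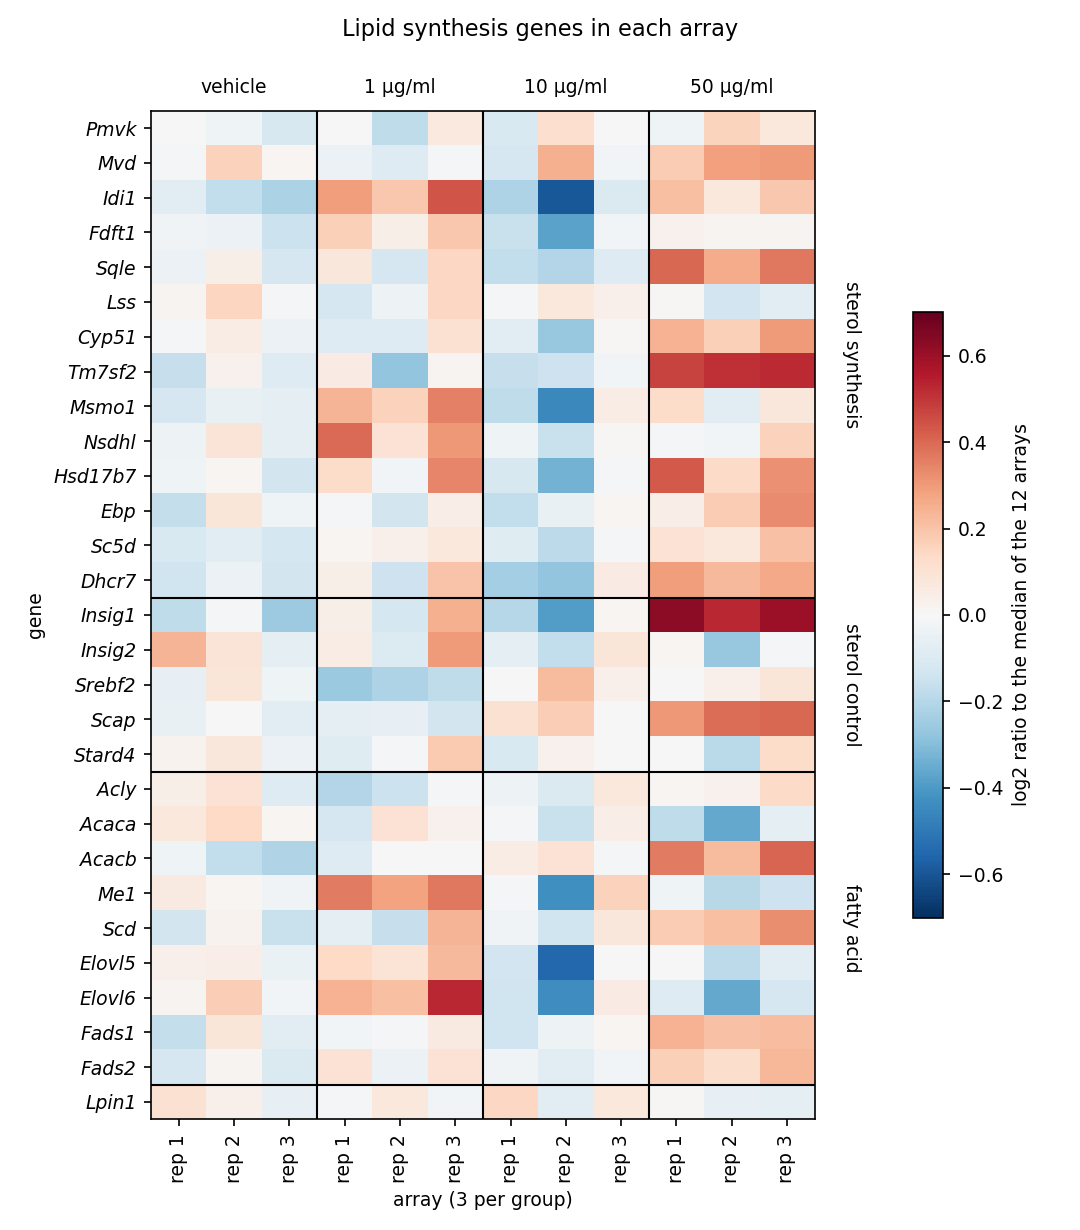
Log2 ratio of each of the 29 genes (rows) to the median of the 12 arrays (colour scale), in each array (columns), with the 3 arrays of each group side by side. The rows of Tm7sf2, Insig1 and Scap are red in all 3 arrays at 50 µg/ml, and the column of replicate 2 at 10 µg/ml is blue for Idi1, Msmo1, Elovl5, Elovl6 and Me1.

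**Figure D2:**
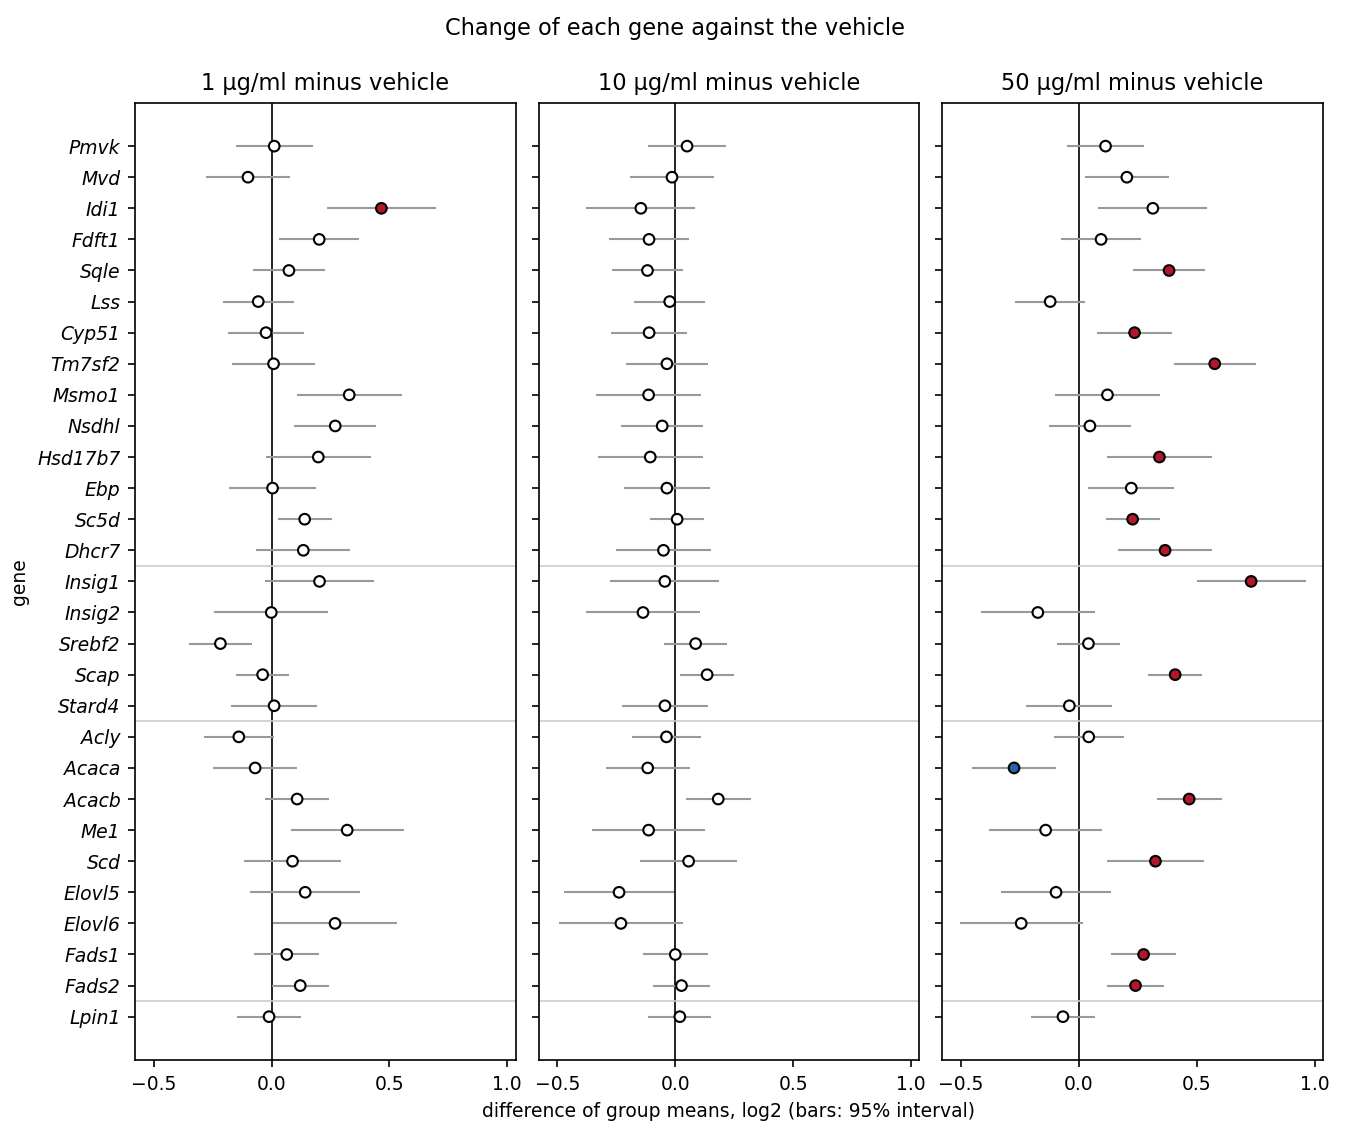
Difference of group means on the log2 scale for each gene at 1, 10 and 50 µg/ml minus the vehicle, with 95% intervals (n = 3 arrays per group); filled points passed the threshold, in red where higher and in blue where lower. At 50 µg/ml there are 12 red points and 1 blue point, at 1 µg/ml 1 red point, and at 10 µg/ml 0.

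Of the sterol control genes, Insig1 had the largest change among all 29 genes at 50 µg/ml. Insig1 encodes the anchor that holds Scap in the endoplasmic reticulum when sterols are plentiful, and is itself a target of the SREBPs. Its log2 ratios were -0.18, -0.01 and -0.25 in the vehicle arrays, 0.04, -0.12 and 0.25 at 1 µg/ml, -0.20, -0.39 and 0.01 at 10 µg/ml, and 0.63, 0.53 and 0.60 at 50 µg/ml. The 3 arrays at 50 µg/ml were above the other 9. Insig1 rose by 0.73 ± 0.11 against the vehicle, a fold of 1.66 (adjusted p = 0.000405), and it was also higher at 50 than at 10 µg/ml (0.78 ± 0.11) and than at 1 µg/ml (0.53 ± 0.11). It was measured by 2 probe sets, which gave 0.64 ± 0.11 and 0.82 ± 0.11 at 50 µg/ml.

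Scap, the escort of the SREBPs, also rose at 50 µg/ml. It had log2 ratios of -0.05, 0.0007 and -0.08 in the vehicle arrays, -0.06, -0.06 and -0.13 at 1 µg/ml, 0.11, 0.17 and -0.0007 at 10 µg/ml, and 0.31, 0.39 and 0.40 at 50 µg/ml. Every array at 50 µg/ml was above every other array. The rise was 0.41 ± 0.05 (adjusted p = 0.000161), a fold of 1.33. The differences were 0.27 ± 0.05 for 50 against 10 µg/ml and 0.45 ± 0.05 for 50 against 1 µg/ml, and both passed.

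The transcription factor gene itself, Srebf2, was not called against the vehicle at any dose. It stood at -0.06, 0.09 and -0.03 in the vehicle arrays, at -0.26, -0.22 and -0.18 at 1 µg/ml, at 0.0014, 0.22 and 0.03 at 10 µg/ml, and at -0.0014, 0.04 and 0.08 at 50 µg/ml. At 50 µg/ml its change was 0.04 ± 0.06, with a 95% interval of -0.09 to 0.17. At 1 µg/ml its 3 arrays were below all other arrays, and the change was -0.22 ± 0.06 (adjusted p = 0.0692). Srebf2 was higher at 50 than at 1 µg/ml (0.26 ± 0.06, adjusted p = 0.00982) and at 10 than at 1 µg/ml (0.30 ± 0.06, adjusted p = 0.00977).

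Insig2, the other anchor protein, was not called at any dose. Over the arrays it stood at 0.24, 0.09 and -0.07 in the vehicle arrays, 0.05, -0.10 and 0.30 at 1 µg/ml, -0.06, -0.17 and 0.08 at 10 µg/ml, and 0.02, -0.26 and -0.02 at 50 µg/ml, so that the groups overlapped. The change at 50 µg/ml was -0.17 ± 0.11, with a 95% interval of -0.42 to 0.07 that did not overlap the interval of Insig1, 0.50 to 0.96. Stard4, a carrier of cholesterol between membranes, had a change of -0.04 ± 0.08 at 50 µg/ml and did not pass in any of the 6 comparisons.

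Among the enzymes of sterol synthesis, 5 of 8 genes from lanosterol to cholesterol rose at 50 µg/ml (median change 0.23). Between squalene and lanosterol 1 of 3 rose (median 0.09), and in the mevalonate and isoprenoid part 0 of 3 (median 0.20, with 3 of 3 above 0). Among all genes 8.75% were called higher, and the median change was 0.02. Parts of 3 genes are too small to be compared by their calls. The medians of the first and the last of these parts were close, and Idi1 and Mvd of the mevalonate part passed without replicate 2 at 10 µg/ml. Tm7sf2, a sterol reductase acting soon after lanosterol, rose most. Its log2 ratios were -0.16, 0.03 and -0.09 in the vehicle arrays, 0.06, -0.27 and 0.02 at 1 µg/ml, -0.16, -0.15 and -0.02 at 10 µg/ml, and 0.48, 0.51 and 0.52 at 50 µg/ml. The 50 µg/ml arrays stood well clear of the other 9, which mixed. The rise was 0.58 ± 0.08, a fold of 1.49 (adjusted p = 0.000295), and the differences from 10 and from 1 µg/ml were 0.61 ± 0.08 and 0.57 ± 0.08.

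Sqle, the squalene epoxidase and a control point of the pathway, rose by 0.38 ± 0.07 (adjusted p = 0.00216). It had log2 ratios of -0.04, 0.04 and -0.12 in the vehicle arrays, 0.08, -0.12 and 0.14 at 1 µg/ml, -0.17, -0.21 and -0.09 at 10 µg/ml, and 0.40, 0.26 and 0.37 at 50 µg/ml. Sqle was highest at 50 µg/ml in all 3 arrays. Its neighbours in the pathway were not called: the squalene synthase Fdft1 had 0.09 ± 0.08 and the lanosterol synthase Lss had -0.12 ± 0.07 at 50 µg/ml. The 95% interval of Lss, -0.27 to 0.03, did not overlap that of Sqle, 0.23 to 0.54.

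Dhcr7, the reductase of the last step of one branch to cholesterol, rose by 0.37 ± 0.09 (adjusted p = 0.0153). Over the arrays it stood at -0.14, -0.04 and -0.13 in the vehicle arrays, 0.04, -0.15 and 0.20 at 1 µg/ml, -0.24, -0.28 and 0.06 at 10 µg/ml, and 0.29, 0.23 and 0.27 at 50 µg/ml. Replicate 3 at 1 µg/ml came close to the 50 µg/ml arrays. Sc5d, a sterol desaturase, rose by 0.23 ± 0.05 (adjusted p = 0.00942). It stood at -0.11, -0.07 and -0.12 in the vehicle arrays, at 0.01, 0.03 and 0.07 at 1 µg/ml, at -0.08, -0.18 and -0.01 at 10 µg/ml, and at 0.10, 0.07 and 0.21 at 50 µg/ml. Vehicle and 50 µg/ml arrays did not overlap in Sc5d, and the 1 µg/ml arrays lay between them.

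Hsd17b7, a keto reductase in the removal of the methyl groups of lanosterol, rose by 0.34 ± 0.10 (adjusted p = 0.0369). Its log2 ratios were -0.03, 0.01 and -0.13 in the vehicle arrays, 0.13, -0.02 and 0.34 at 1 µg/ml, -0.11, -0.33 and -0.01 at 10 µg/ml, and 0.43, 0.14 and 0.32 at 50 µg/ml. The arrays at 1 and 50 µg/ml overlapped. Cyp51, the lanosterol demethylase, rose by 0.24 ± 0.07 (adjusted p = 0.0439). It stood at -0.01, 0.05 and -0.04 in the vehicle arrays, at -0.09, -0.09 and 0.11 at 1 µg/ml, at -0.08, -0.26 and 0.01 at 10 µg/ml, and at 0.25, 0.17 and 0.30 at 50 µg/ml. The calls of Hsd17b7, Cyp51 and Dhcr7 at 50 µg/ml were lost with some arrays left out: they held in 6, 4 and 10 of 12 omissions, and leaving out vehicle replicate 1 or vehicle replicate 3 ended all 3, which brought the count of sterol synthesis genes to 3. Hsd17b7 and Cyp51 also lost their calls with p-values adjusted over all probe sets, and Cyp51 after a repeated quantile normalization and after centring each array on its median.

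The other sterol enzymes did not pass at 50 µg/ml. The isomerase Idi1 had 0.31 ± 0.11 (adjusted p = 0.0622), the mevalonate decarboxylase Mvd 0.20 ± 0.08, the isomerase Ebp 0.22 ± 0.08, the phosphomevalonate kinase Pmvk 0.11 ± 0.08, the oxidase Msmo1 0.12 ± 0.10 and the dehydrogenase Nsdhl 0.05 ± 0.08. In Mvd, Idi1 and Fdft1 the 50 µg/ml arrays did not overlap the vehicle arrays, which was also so in 36% of all genes. Of the 14 enzymes, 13 had a change above 0 and Lss a change below 0.

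The fatty acid genes went in both directions at 50 µg/ml. The 2 acetyl-CoA carboxylases, which make malonyl-CoA, were called in opposite directions. Acacb, the form at the mitochondrion whose product restrains fatty acid uptake in muscle, had log2 ratios of -0.03, -0.17 and -0.21 in the vehicle arrays, -0.09, 0.0019 and -0.0019 at 1 µg/ml, 0.05, 0.10 and -0.02 at 10 µg/ml, and 0.37, 0.22 and 0.41 at 50 µg/ml. It rose by 0.47 ± 0.06, a fold of 1.38 (adjusted p = 0.000233). At 10 µg/ml the 3 arrays of Acacb also lay above the vehicle arrays, the only one of the 29 genes of which this held in either direction (3.45%, against 11.2% of all genes), and its change of 0.18 ± 0.06 did not pass. Acacb and Scap were the 2 of the 29 genes with a linear trend over the order vehicle, 1, 10 and 50 µg/ml. The slopes were 0.15 per step (adjusted p = 0.00914) and 0.14 per step (adjusted p = 0.011). The share of all genes with such a trend is not given here, so the count is not set against a background. For Scap the change at 1 µg/ml was -0.04, so its course was not a rise at each step.

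Acaca, the cytosolic carboxylase that supplies fatty acid synthesis, fell by 0.28 ± 0.08 at 50 µg/ml (adjusted p = 0.0355). It had log2 ratios of 0.07, 0.14 and 0.01 in the vehicle arrays, -0.12, 0.10 and 0.03 at 1 µg/ml, -0.01, -0.16 and 0.05 at 10 µg/ml, and -0.18, -0.36 and -0.06 at 50 µg/ml. Replicate 3 at 50 µg/ml was close to the vehicle arrays. The call held in 7 of the 12 omissions of an array and ended in those of vehicle replicates 1, 2 and 3 and of 50 µg/ml replicates 1 and 2, and with p-values adjusted over all probe sets. Acly, which makes cytosolic acetyl-CoA from citrate for both routes, stood at 0.04, 0.10 and -0.09 in the vehicle arrays, at -0.20, -0.15 and -0.02 at 1 µg/ml, at -0.03, -0.10 and 0.07 at 10 µg/ml, and at 0.02, 0.03 and 0.13 at 50 µg/ml. The 50 µg/ml and vehicle arrays overlapped, and the change at 50 µg/ml was 0.04 ± 0.07, with a 95% interval of -0.11 to 0.19. The 50 µg/ml arrays lay above the 1 µg/ml arrays, with a difference of 0.18 that did not pass (adjusted p = 0.0722).

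The 3 desaturase genes of this group, Scd, Fads1 and Fads2, rose at 50 µg/ml. Scd, which puts a double bond into saturated acyl-CoA, had log2 ratios of -0.13, 0.02 and -0.16 in the vehicle arrays, -0.07, -0.16 and 0.24 at 1 µg/ml, -0.02, -0.14 and 0.08 at 10 µg/ml, and 0.18, 0.21 and 0.33 at 50 µg/ml. Its rise was 0.32 ± 0.09 (adjusted p = 0.0315), and the call ended without vehicle replicate 1, vehicle replicate 3, 50 µg/ml replicate 2 or 50 µg/ml replicate 3. Fads1 and Fads2 are desaturases of polyunsaturated fatty acids. Fads1 had -0.17, 0.08 and -0.08 in the vehicle arrays, -0.02, -0.01 and 0.06 at 1 µg/ml, -0.14, -0.03 and 0.01 at 10 µg/ml, and 0.24, 0.20 and 0.22 at 50 µg/ml, and rose by 0.27 ± 0.06 (adjusted p = 0.00928). Fads2 had -0.12, 0.02 and -0.10 in the vehicle arrays, 0.10, -0.04 and 0.10 at 1 µg/ml, -0.02, -0.08 and -0.02 at 10 µg/ml, and 0.16, 0.12 and 0.23 at 50 µg/ml, and rose by 0.24 ± 0.06 (adjusted p = 0.00937). In both, the 50 µg/ml arrays were above all other arrays.

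The elongases and the malic enzyme were not called at 50 µg/ml against the vehicle. At 50 µg/ml Elovl6, which lengthens saturated and monounsaturated chains, had -0.25 ± 0.12, Elovl5, which lengthens polyunsaturated chains, had -0.10 ± 0.11, and Me1, a source of NADPH for synthesis, had -0.14 ± 0.11. In Elovl6 and Me1 the 50 µg/ml arrays lay wholly below the vehicle arrays. These 2 groups did not overlap, in either direction, in 36% of all genes. For Me1 the nearest values were -0.024 in the vehicle and -0.031 at 50 µg/ml. The 95% intervals of Elovl6 (-0.51 to 0.02) and of Fads1 (0.14 to 0.41) did not overlap. Each interval is that of a single gene, and this pair is 1 of many possible. The difference between genes was not tested, here or for Insig1 with Insig2 and Sqle with Lss. Lpin1, a phosphatidate phosphatase of glycerolipid synthesis, had -0.07 ± 0.06 at 50 µg/ml and was called in 0 of the 6 comparisons.

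At 50 µg/ml the changes of the sterol synthesis genes lay mostly on 1 side, with 13 of 14 above 0, and those of the fatty acid genes on both, with 5 of 9 above 0. The median change was 0.23 over the 14 sterol synthesis genes and 0.04 over the 9 fatty acid genes, against 0.02 over all genes. With 1 array left out, the sterol median ran from 0.185 to 0.259 and the fatty acid median from -0.012, without vehicle replicate 3, to 0.084, without vehicle replicate 2. Arrays at 50 µg/ml and vehicle arrays did not overlap in 64.3% of the sterol synthesis genes and in 77.8% of the fatty acid genes, against 36% of all genes. The mean log2 ratio over the sterol synthesis genes was 0.18 ± 0.04 at 50 µg/ml and -0.05 ± 0.05 in the vehicle (SD, n = 3 arrays each), and the arrays of the groups did not overlap. Over the fatty acid genes it was 0.05 ± 0.07 at 50 µg/ml and -0.02 ± 0.06 in the vehicle, and the arrays overlapped. Within an array, the sterol mean minus the fatty acid mean was 0.10, 0.17 and 0.12 at 50 µg/ml, and it ran from -0.08 to 0.04 over the 9 arrays of the other groups. The share of genes called was 42.9% in the sterol synthesis group and 55.6% in the fatty acid group, against 17.6% of all genes. Both groups were chosen with results known, and no p is given for their means.

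**Figure D3:**
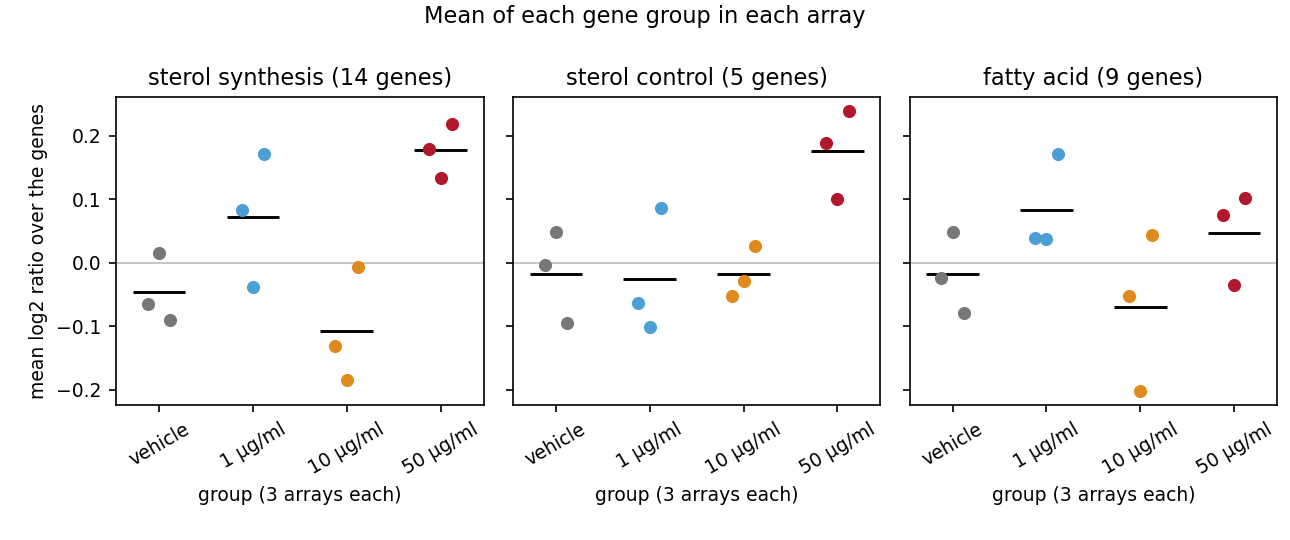
Mean log2 ratio over the genes of each group in each array (points) and the mean of the 3 arrays (lines), by dose from the vehicle to 50 µg/ml. Sterol synthesis runs from 0.13 to 0.22 at 50 µg/ml, against -0.09 to 0.02 in the vehicle, whereas the fatty acid group runs from -0.03 to 0.10 at 50 µg/ml, against -0.08 to 0.05 in the vehicle.

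At 1 µg/ml a different gene led. Idi1, which interconverts the isoprenoid building units, had log2 ratios of -0.07, -0.17 and -0.22 in the vehicle arrays, 0.29, 0.19 and 0.44 at 1 µg/ml, -0.22, -0.59 and -0.10 at 10 µg/ml, and 0.21, 0.07 and 0.19 at 50 µg/ml. It rose by 0.47 ± 0.11 at 1 µg/ml against the vehicle, a fold of 1.38 (adjusted p = 0.0321), and was the 1 of 29 genes called there (3.45%), against 4.24% of all genes (2.51% higher and 1.74% lower), a share near that background. The call held in 7 of the 12 omissions of an array and ended in those of each vehicle replicate and of 1 µg/ml replicates 1 and 3, while it held in the 8 other settings. At 1 µg/ml 3 of 6 endothelial markers were lower than in the vehicle, with a median change of -0.27 over the 6.

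The arrays of 1 µg/ml and the vehicle did not overlap in 9 of the 29 genes (31%), a share at the background of 30.8% of all genes. Besides Idi1, these were Fdft1 (0.20 ± 0.08), Msmo1 (0.33 ± 0.10), Nsdhl (0.27 ± 0.08), Sc5d (0.14 ± 0.05), Me1 (0.32 ± 0.11), Elovl5 (0.14 ± 0.11) and Elovl6 (0.27 ± 0.12), all with a change above 0, and Srebf2, with a change below 0. The median change at 1 µg/ml was 0.10 over the sterol synthesis genes and 0.11 over the fatty acid genes, against -0.0034 over all genes. Single arrays moved both: the sterol median was 0.035 without 1 µg/ml replicate 3, and the fatty acid median was 0.071 without vehicle replicate 3 and 0.168 without 1 µg/ml replicate 2. Without 10 µg/ml replicate 2, the array that stood apart, Fdft1, Msmo1, Nsdhl, Me1 and Srebf2 also passed at 1 µg/ml, and the number of genes called was 6.

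At 10 µg/ml 0 of the 29 genes passed against the vehicle, as did 0 of all 14324 genes (0%) in the limma fit, while 3 of the 29 and 6.28% of all genes had an unadjusted p under 0.05. The largest changes were -0.24 ± 0.11 for Elovl5, -0.23 ± 0.12 for Elovl6 and 0.18 ± 0.06 for Acacb. In Elovl5 replicate 2 stood at -0.55, against -0.13 and -0.0014 in the other 2 arrays at that dose. The median change was -0.05 over the sterol synthesis genes, of which 2 of 14 were above 0, and -0.04 over the fatty acid genes. With 1 array left out, the sterol median ran from -0.121, without 10 µg/ml replicate 3, to -0.014, without vehicle replicate 2. The fatty acid median ran from -0.091, without vehicle replicate 3, to 0.005, without vehicle replicate 2, and was 0.003 without 10 µg/ml replicate 2.

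The doses were also compared with each other, the study being one of dose dependence. These comparisons share arrays with those against the vehicle. For 50 against 10 µg/ml 12 genes were higher and 0 lower (41.4%, against 14.6% of all genes, 7.75% higher and 6.85% lower). They were Idi1 (0.46 ± 0.11), Sqle (0.50 ± 0.07), Cyp51 (0.35 ± 0.07), Tm7sf2, Hsd17b7 (0.45 ± 0.10), Sc5d (0.22 ± 0.05), Dhcr7 (0.42 ± 0.09), Insig1, Scap, Acacb (0.29 ± 0.06), Fads1 (0.27 ± 0.06) and Fads2 (0.21 ± 0.06). The arrays of these doses did not overlap in 15 of the 29 genes (51.7%), among them these 12, against 26.2% of all genes. Of the 12 calls, 9 held in all 12 omissions of an array and 7 in all 8 other settings. A repeated quantile normalization ended those of Acacb, Fads1 and Fads2, a fit of the 6 compared arrays alone those of Idi1 and Sc5d, and array weights gave 16 calls. Fads2 held in 9 of the 12 omissions.

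For 50 against 1 µg/ml 9 genes were higher and 2 lower (37.9%, against 24.9% of all genes, 11.5% higher and 13.4% lower), and the arrays did not overlap in 19 of the 29 (65.5%, against 40.9% of all genes). Besides Insig1, Scap, Tm7sf2 and Srebf2, the higher ones were Sqle (0.31 ± 0.07), Mvd (0.30 ± 0.08), Cyp51 (0.26 ± 0.07), Acacb (0.36 ± 0.06) and Fads1 (0.21 ± 0.06). Fads1 held in 7 of the 12 omissions, Cyp51 in 8 and Mvd in 9, and Fads1 and Mvd were lost when quantile normalization was repeated. The lower ones were Me1 and Elovl6. Me1 had log2 ratios of 0.06, 0.02 and -0.02 in the vehicle arrays, 0.36, 0.28 and 0.37 at 1 µg/ml, -0.02, -0.43 and 0.16 at 10 µg/ml, and -0.03, -0.19 and -0.14 at 50 µg/ml, and its difference of 50 against 1 µg/ml was -0.46 ± 0.11 (adjusted p = 0.00992). Elovl6 had 0.02, 0.17 and -0.02 in the vehicle arrays, 0.24, 0.21 and 0.53 at 1 µg/ml, -0.14, -0.43 and 0.05 at 10 µg/ml, and -0.09, -0.36 and -0.12 at 50 µg/ml, and its difference of 50 against 1 µg/ml was -0.51 ± 0.12 (adjusted p = 0.00879). In both genes the 1 µg/ml arrays were above all arrays of the other groups.

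For 10 against 1 µg/ml 7 genes were lower and 2 higher (31%, against 14% of all genes, 4.77% higher and 9.2% lower), and the arrays did not overlap in 10 of the 29 (34.5%, against 30.4% of all genes). The lower ones were Idi1 (-0.61 ± 0.11), Elovl6 (-0.50 ± 0.12), Msmo1 (-0.44 ± 0.10), Me1 (-0.43 ± 0.11), Elovl5 (-0.38 ± 0.11), Nsdhl (-0.33 ± 0.08) and Fdft1 (-0.31 ± 0.08), and the higher ones were Srebf2 and Scap (0.17 ± 0.05). Of these, Msmo1 had log2 ratios of -0.12, -0.05 and -0.06 in the vehicle arrays, 0.24, 0.16 and 0.35 at 1 µg/ml, -0.18, -0.45 and 0.05 at 10 µg/ml, and 0.13, -0.08 and 0.08 at 50 µg/ml. The calls rested in part on single arrays. Without 10 µg/ml replicate 2 the genes called were 4 in number, with Idi1 at -0.47 ± 0.08, Msmo1 at -0.31 ± 0.08, Me1 at -0.27 ± 0.07 and Srebf2 at 0.24 ± 0.06. Without 1 µg/ml replicate 3 the number was 2, without 1 µg/ml replicate 1 it was 4, and in a fit of the 6 arrays at 10 and 1 µg/ml alone it was 2. Idi1 and Srebf2 kept their calls in all 12 omissions and in all 8 other settings.

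**Figure D4:**
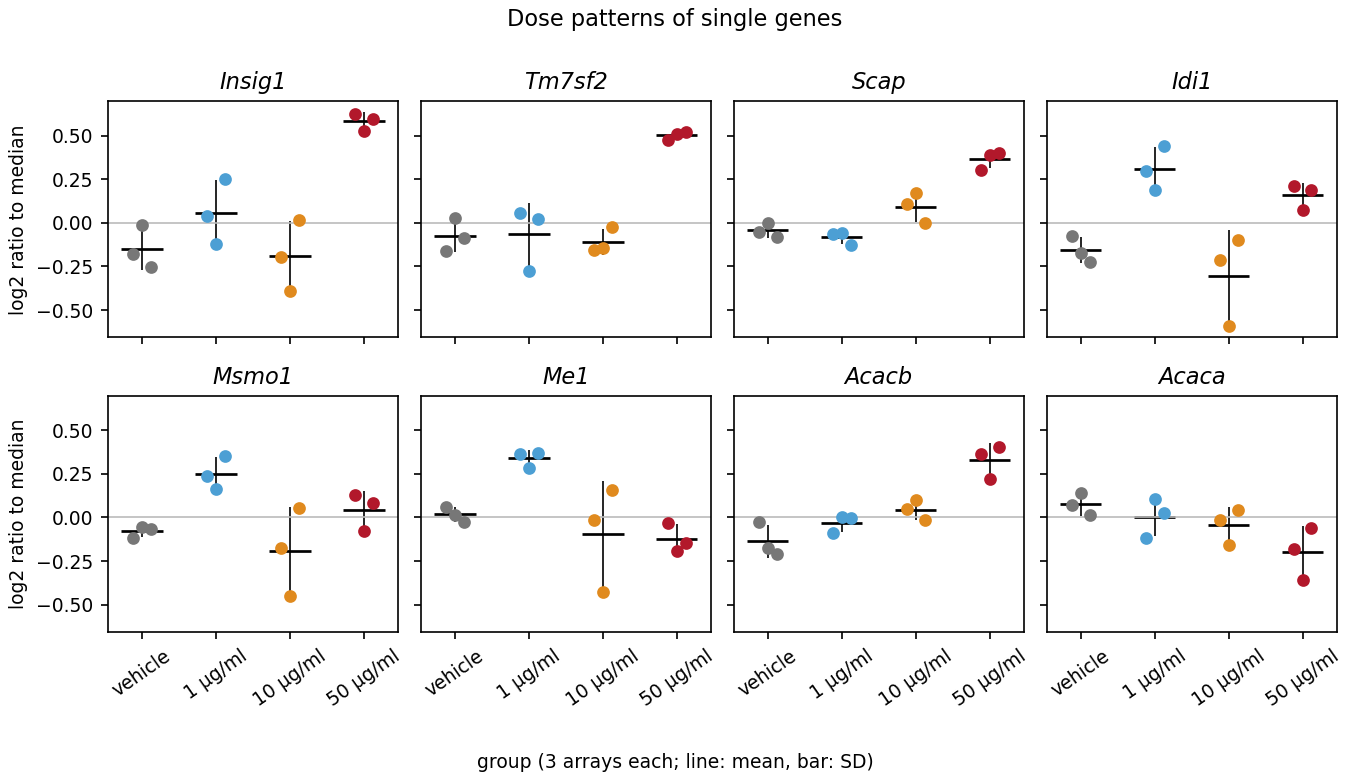
Log2 ratio of 8 genes in each array (points), by dose from the vehicle to 50 µg/ml, with the mean (line) and SD (bar) of the 3 arrays. Insig1, Tm7sf2, Scap and Acacb are highest at 50 µg/ml and Acaca is lowest there, whereas Idi1, Msmo1 and Me1 are highest at 1 µg/ml.

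The 22 genes called in at least 1 of the 6 comparisons did not share 1 course over the doses. Pmvk, Lss, Ebp, Insig2, Stard4, Acly and Lpin1 were called in none of the 6. Of the 13 calls at 50 µg/ml against the vehicle, 8 held in all 12 omissions of an array: Sqle, Tm7sf2, Sc5d, Insig1, Scap, Acacb, Fads1 and Fads2.

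Other genes of lipid supply were read from lists set by function. Of 4 further measured genes in or beside the sterol pathway, Acat2, Ggps1, Lbr and Dhdds, 0 passed at any dose against the vehicle. Of 13 genes of cholesterol uptake, storage and export, 5 were lower and 1 higher at 50 µg/ml (46.2%, against 17.6% of all genes). The exporters Abca1 and Abcg1 fell by 1.52 ± 0.09 and fell by 0.70 ± 0.07, and Mylip, which marks lipoprotein receptors for breakdown, fell by 0.54 ± 0.05. Macrophages express both exporters, and all 12 macrophage markers were lower in the same arrays; the part of that shift in these falls was not tested. The lysosomal cholesterol carrier Npc2 rose by 0.38 ± 0.07. Of 9 genes of SREBP processing and its control the adaptor Ubxn8 was higher (0.36) and the coat protein Sec23a lower (-0.29) at 50 µg/ml (22.2%, near the 17.6% of all genes), and the site proteases Mbtps1 (0.06) and Mbtps2 (-0.11) did not pass.

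Of 23 further fatty acid genes 5 were higher and 2 lower at 50 µg/ml (30.4%, against 17.6% of all genes). The acyl-CoA synthetases Acsl1 and Acsl5 rose by 0.62 ± 0.09 and by 0.32 ± 0.05, and the desaturase relative Fads3 rose by 0.42 ± 0.07. Scd2, a second stearoyl-CoA desaturase, fell by 0.32 ± 0.07, against the rise of Scd. Of 22 glycerolipid genes 6 were higher and 1 lower (31.8%, against the same 17.6%). Dgat2 and Dgat1, which make triglyceride from diacylglycerol, rose by 0.72 ± 0.08 and by 0.39 ± 0.06, the acyltransferase Agpat3 rose by 0.29 ± 0.05, and the phosphatase Lpin2 fell by 0.51 ± 0.05 while Lpin1 did not pass. At 1 µg/ml the thioesterase Acot2 (0.46 ± 0.09), the acyltransferase Agpat2 (0.29 ± 0.06) and the ubiquitin ligase Rnf139 (0.34 ± 0.09) rose. The receptor Lrp1 fell by 0.26 ± 0.07 at that dose. Each was the 1 call of its list, while 4.24% of all genes were called. The shares were 4.35% of the further fatty acid genes and 4.55% of the glycerolipid genes, both near that background. They were 11.1% of the SREBP processing genes and 7.69% of the uptake, storage and export genes. At 10 µg/ml 0 genes of these lists passed. Of the adipocyte and hepatocyte markers 1 of 5 was higher at 50 µg/ml (20%, near the 17.6% of all genes), the transport protein Ttr at 0.24 ± 0.07.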

How the data were processed

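Values came from 1 table of the whole series, with 12 columns and 27342 probe sets. Per the submitters' processing notes, the authors processed the arrays with RMA (robust multi-array average), and no version is named. What they deposited is a linear ratio per array, with the probe set's median as divisor: after log2, the middle of each probe set's sorted row lay within 4.8e-07 of 0. Ratios were converted to log2, and a gene was the mean of its probe sets with exactly 1 symbol (15097 probe sets, 14324 genes, 499 with several probe sets; 323 probe sets had several symbols and 11922 had none). The median of each array's ratios lay between 0.994 and 1.01.

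A model with 1 mean per group was fitted to the 12 arrays in R 4.3.3 with limma 3.58.1 (8 residual degrees of freedom, median residual SD 0.0822), with two-sided tests and Benjamini-Hochberg adjustment over all genes. An exact permutation of 3 against 3 arrays cannot give a p under 0.1. The number of arrays limits the precision. The script was tested on simulated data. The genes, groups and lists were chosen with earlier results of these data known. All arrays of a gene are given for each gene called at any dose against the vehicle and for Srebf2, Insig2 and Acly; Msmo1, Me1 and Elovl6 were added after their values were seen. Of other lists, up to 3 genes per comparison with the smallest p are named, and further ones were picked knowing their values. The alternatives tried comprised other normalizations, moderation, weights, array subsets, probe set choice and the replicate block. The labels do not say whether the replicate numbers pair the arrays. Correlations of same-numbered arrays' deviations from their group means ran from -0.233 to 0.432 over 18 pairs. For arrays of differing number they ran from -0.481 to 0.495 over 36 pairs.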

Additional observations from a re-analysis of the deposited data

How the results depend on the processing

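Each single-gene call against the vehicle kept its direction in every alternative run. At 1 µg/ml the number of sterol synthesis genes called was 1 as reported, 3 when quantile normalization was repeated, 4 with array weights, 3 with the compared groups alone and 2 with the replicate block, and 0 to 4 with an array left out. For sterol control genes it was 0 as reported, 1 with repeated quantile normalization, array weights, the compared groups alone or the replicate block, and 0 to 1 with an array left out. For fatty acid genes it was 0 as reported, 1 with array weights and with the compared groups alone, and 0 to 1 with an array left out. At 50 µg/ml leaving out an array gave 3 to 8 sterol synthesis genes (6 as reported) and 3 to 5 fatty acid genes (5 as reported). For 10 against 1 µg/ml it gave 2 to 12 of the 29 genes (9 as reported), and the compared groups alone gave 2. The replicate block, whose numbers the labels do not tie to a pairing, gave 15 genes at 50 µg/ml and 3 at 1 µg/ml. Of the 12 arrays 5 correlated best with an array of their own number. The cause of these shifts was not tested. Among all genes the count at 1 µg/ml (608) was 1139 after quantile normalization, 1772 with array weights and 1661 with the compared groups alone; at 10 µg/ml (0) it was 15 after quantile normalization and 90 with array weights; for 50 against 10 µg/ml (2091) it was 3457 with array weights and 1312 with the compared groups alone; for 50 against 1 µg/ml (3562) it was 2321 after quantile normalization; and for 10 against 1 µg/ml (2001) it was 3155 with array weights and 697 with the compared groups alone. With an array left out it ran from 176 to 1282 at 1 µg/ml and from 820 to 2694 for 10 against 1 µg/ml. A prior variance that follows the mean was not run, since ratios carry no level, and signal over background was not analysed here.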
